A study of Homo sapiens with 6 samples.

Results

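Nucleoporin and karyopherin genes were followed in Toledo cells, an established human line from a diffuse large B cell lymphoma grown in suspension, after inhibition of the arginine methyltransferase CARM1. The genes were chosen by name. They are the protein-coding rows of the deposited table whose GENCODE 29 symbol begins with NUP, KPNA or KPNB followed directly by a number. The rule also names SEC13, SEH1L, NDC1, POM121, RANBP2, TPR, XPO1 and CSE1L. The rule took 37 of the 18278 listed genes, of which 28 were grouped as nuclear pore genes and 9 encode transport receptors. NUP62CL and NUP210L are among the 28 by symbol, as relatives of pore genes. KPNA7 is a further gene that the rule names in the annotation and was not analysed here. Polyadenylated RNA was sequenced from 3 samples grown with TP-064, a small-molecule inhibitor of CARM1, at 5 uM and 3 samples grown with the solvent DMSO, each for 6 days. All samples are of the same line, no genetic change is named in the labels, and the labels do not say whether replicates were separate cultures. The p-values therefore measure the spread between these samples alone, and that spread may be technical.

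The nuclear pore complex is a channel through the nuclear envelope, assembled from stacked rings of nucleoporins around a core rich in flexible phenylalanine-glycine repeats. Small molecules diffuse through it, while large cargo is escorted by karyopherins that bind those repeats. Importin alpha reads a nuclear localization signal and hands the cargo to importin beta. The GTPase Ran, bound to GTP in the nucleus, releases the cargo from importins and loads it onto exportins. Dividing cells take their pores apart in mitosis, rebuild them on the new nuclei and add more before the next division.

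The libraries held 41354131 to 48360867 reads over the listed genes, and the 37 members took 0.552% to 0.565% of them in TP-064 samples, against 0.798% to 0.807% in DMSO samples. Markers of B cells were abundant, and the summed normalized read count of MS4A1, CD79A, CD79B and PAX5 was 88535 to 95380 in TP-064 samples and 89699 to 91154 in DMSO samples. The sum hides opposite shifts, none with overlap between the groups. MS4A1 was at 18335 to 20504 in TP-064 samples and 9853 to 10921 in DMSO samples, and PAX5 at 27458 to 28859 in TP-064 samples and 22247 to 23112 in DMSO samples. CD79A was at 7305 to 8311 in TP-064 samples and 11147 to 12361 in DMSO samples, and CD79B at 35114 to 39095 in TP-064 samples and 45367 to 46348 in DMSO samples. Of 5 T cell, 5 myeloid, 5 epithelial and 4 erythroid markers, those with a row were CD4, CD14, LYZ, CSF1R and KRT8, and none of their normalized read counts passed 75.2 in any library. CSF1R was at 49.5 to 75.2 in TP-064 samples and 6.49 to 18.9 in DMSO samples, and CD4 at 19.8 to 24.4 in TP-064 samples and 3.11 to 6.49 in DMSO samples, without overlap. CD14 was at 3.96 to 8.74 in TP-064 samples and 10.8 to 20.9 in DMSO samples, also apart, while LYZ and KRT8 overlapped between the groups. The part of these shifts in the members' values was not tested. TP-064 replicate 3 stood a little apart. Its log values correlated at 0.989 and 0.990 with the other TP-064 libraries, while the remaining pairs within a group reached 0.995. At KPNB1 the antisense gene AC015674.1 had 126 normalized read counts in that library and 9.61 to 15.6 in the other 5. Leaving it out changed no call among the members, with 32 lower, 1 higher and a median log2 fold change of -0.71.

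Transcripts of the transport machinery were lower after TP-064 in nearly every branch of it. Of 36 members whose mean reached 10 normalized read counts, 32 fell, 1 rose and 3 were not called (limma, Benjamini-Hochberg adjusted p under 0.05 over all genes tested). Across the 16048 genes tested 65.1% were called, 33.3% lower and 31.9% higher, and among genes with a mean of at least 1000, the level of most members, 47.4% were lower and 33% higher. The median log2 fold change of the members was -0.72, against 0.01 over all genes tested and -0.07 over genes with a mean of at least 1000. Changes were mostly moderate. A fall of at least 2-fold was seen in 4 members, NUP62CL, NDC1, CSE1L and KPNA2, where 6.56% of all genes fell that far. A further 18 members fell by between 0.5 and 1 on the log2 scale and 10 by less than 0.5. The 3 TP-064 samples lay below the 3 DMSO samples in 33 members, a pattern found in 35.2% of all genes tested, and above them in RANBP2, a pattern found in 33.9% of them. RANBP2 was the only member called higher, and TPR, POM121 and KPNA5 were not called. The remaining member, NUP210L, a paralogue of NUP210 known from the testis, had 4.95 to 10.2 normalized read counts in TP-064 samples and 3.98 to 10.8 in DMSO samples and was left out of the test. In bulk RNA, fewer cells in a given stage of the cycle and less RNA per cell cannot be told apart.

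**Figure D1:**
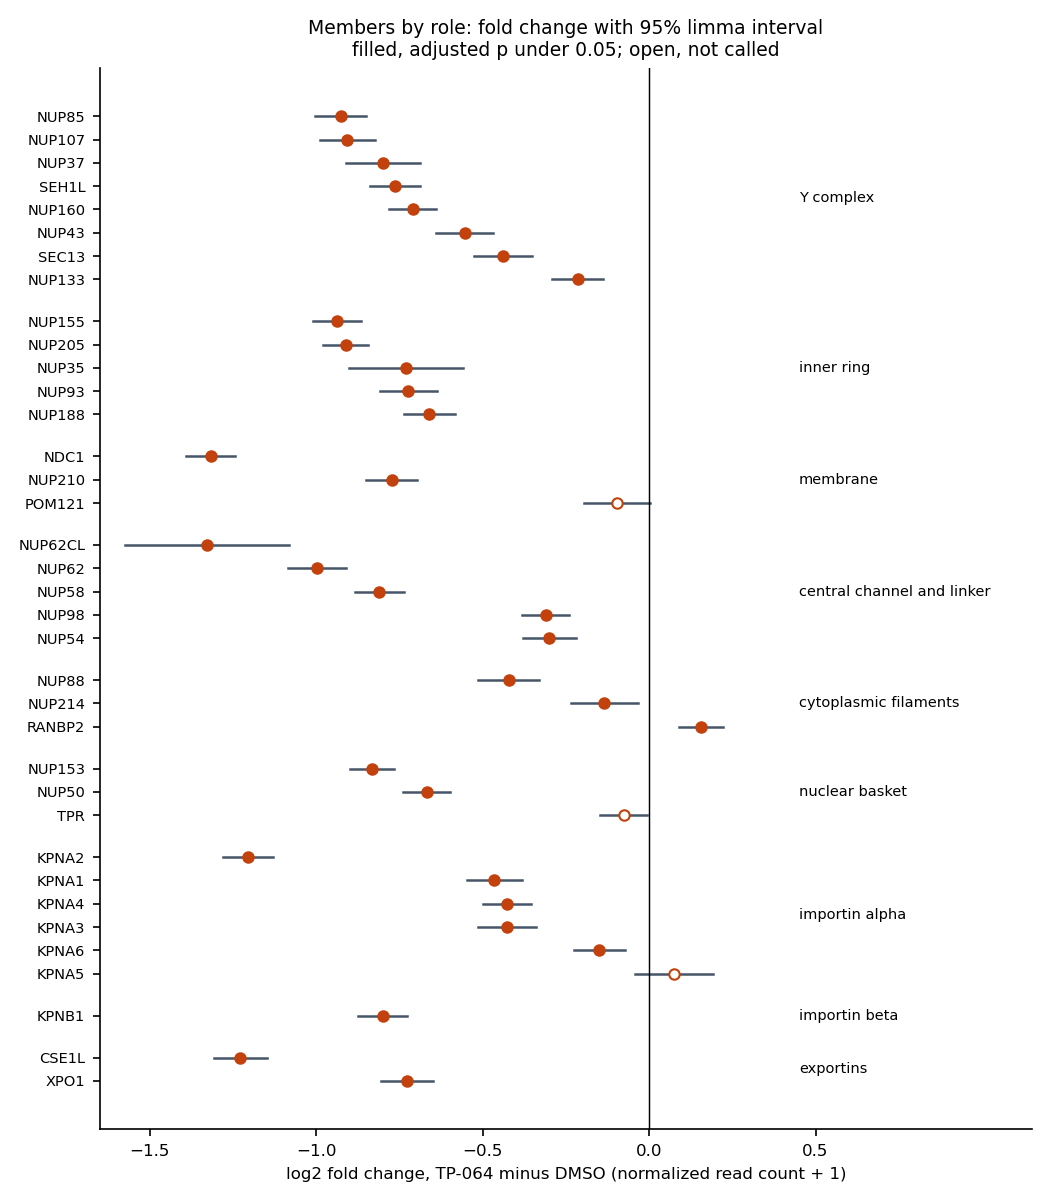
Log2 fold change of the 36 tested members, TP-064 minus DMSO, with 95% intervals from limma, grouped by place in the transport machinery. Filled points passed the test. Values run from -1.33 for NUP62CL to 0.16 for RANBP2, and each group holds members that fell.

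The sequence before 3 abundant members that fell by at least 2-fold, NDC1, CSE1L and KPNA2, is printed here as a description. That before RANBP2, the member that rose, is printed too. NUP62CL, the member with the lowest value, is expressed at a low level and is not printed. Its stretch held 2 matches to CCAAT and 0 to TTTGAA. Each line gives the 250 bases before the RefSeq start on GRCh38.p14, read on the strand of the gene. Capitals mark matches, on either strand, to the letters CCAAT, the box bound by NF-Y, and TTTGAA, the core of the cell cycle homology region known from genes of late cell cycle. NDC1 lies on the minus strand at chr1:53838297-53838546, CSE1L on the plus strand at chr20:49046062-49046311, KPNA2 on the plus strand at chr17:68035485-68035734 and RANBP2 on the plus strand at chr2:108719232-108719481.
NDC1: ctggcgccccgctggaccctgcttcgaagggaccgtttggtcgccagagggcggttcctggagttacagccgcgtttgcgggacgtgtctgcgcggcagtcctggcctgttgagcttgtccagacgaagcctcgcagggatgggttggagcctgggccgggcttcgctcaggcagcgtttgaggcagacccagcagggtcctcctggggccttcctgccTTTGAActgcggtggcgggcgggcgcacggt
CSE1L: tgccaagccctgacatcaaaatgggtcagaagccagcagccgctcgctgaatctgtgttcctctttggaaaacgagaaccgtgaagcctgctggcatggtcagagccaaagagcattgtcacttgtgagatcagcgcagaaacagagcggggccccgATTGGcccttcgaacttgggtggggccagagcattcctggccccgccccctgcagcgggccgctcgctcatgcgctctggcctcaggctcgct
KPNA2: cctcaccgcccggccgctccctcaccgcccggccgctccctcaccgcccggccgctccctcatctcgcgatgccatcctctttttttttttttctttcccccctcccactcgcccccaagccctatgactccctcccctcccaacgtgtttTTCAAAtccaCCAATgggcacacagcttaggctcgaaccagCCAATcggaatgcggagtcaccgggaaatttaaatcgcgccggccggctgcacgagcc
RANBP2: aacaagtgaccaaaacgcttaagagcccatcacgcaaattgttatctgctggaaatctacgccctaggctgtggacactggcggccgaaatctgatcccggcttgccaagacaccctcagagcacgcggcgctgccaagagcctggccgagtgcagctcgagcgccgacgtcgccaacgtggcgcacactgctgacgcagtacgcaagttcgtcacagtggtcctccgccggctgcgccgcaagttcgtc
The NDC1 stretch held TTTGAA starting 31 bases before the start. In KPNA2, TTTGAA on the reverse strand began 99 bases before the start and 2 CCAAT boxes began 89 and 58 bases before it. CSE1L had 1 CCAAT box on the reverse strand, 93 bases before the start, and RANBP2 had no match to any of the letters searched. These words were chosen with the fold changes known, and a match is a description of letters and not a site.

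Over the 33 members that have an entry in the RefSeq promoter table (NUP43, KPNA4, KPNA5 and KPNB1 do not), 15 held CCAAT in this window, or 45.5%, against 35.3% of 10181 listed protein-coding genes. TTTGAA was found in 7, namely NUP37, NUP98, KPNA2, NUP205, NUP35, NDC1 and NUP153, which is 21.2% of the members against 8.61% of all. The full palindrome read by NRF1 was found in 3 (NUP107, NUP62 and NUP50), at 9.09% against 1.98%. TGACGTCA, the full cAMP response element, was found in NUP133 and NUP214, at 6.06% against 2.78%. The E2F words TTTCGCGC and TTTGGCGC were found in 0 of the members and in 1.65% of all. All words were searched on both strands, and no matches overlapped in the printed stretches. All 7 genes with TTTGAA were among those that fell, but so were most members without it. CCAAT was found in members that fell and in members that changed little, with 2 matches each in TPR (-0.08) and KPNA6 (-0.15). NUP155 (-0.94) and NUP85 (-0.93) held 0 matches to CCAAT or TTTGAA. The printed stretches were picked by fold change and do not stand for the members.

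The Y complex is the outer ring that coats both faces of the pore and seeds its assembly. Of the 8 members grouped under it here, which need not be all its parts, 8 were lower, with a median log2 fold change of -0.74. NUP85, a scaffold of the short arm, fell to 3852 ± 93.1 normalized read counts in TP-064 samples, against 7325 ± 220 in DMSO samples (SD, n = 3 each), a log2 fold change of -0.93. NUP107, in the stem of the Y, was at 5813 ± 247 in TP-064 samples and 10894 ± 296 in DMSO samples, a log2 fold change of -0.91. NUP133, which binds NUP107 at the tip of that stem, changed far less, at -0.22 (standard error 0.04, limma adjusted p = 7.49e-05). Its values were 9061, 9471 and 9048 after TP-064, against 10987, 10661 and 10366 after DMSO. Neighbours in the same stem thus differed in the size of their fall. The log2 ratio of NUP133 to NUP107 was 0.63 to 0.71 in TP-064 samples and -0.08 to 0.05 in DMSO samples. Between these limits lay NUP37 (-0.80), SEH1L (-0.76), NUP160 (-0.71), NUP43 (-0.55) and SEC13 (-0.44). SEH1L and SEC13 also serve in other complexes, SEC13 in the COPII coat of secretory vesicles and both in the GATOR2 regulator of amino acid signalling.

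Inner ring transcripts were the most uniform of the groups with several members, and 5 of 5 fell, from -0.94 to -0.66. NUP155, which links the ring to the membrane, had 6081, 6283 and 5985 normalized read counts in TP-064 samples, against 11707, 11892 and 11551 after DMSO. The groups lay far apart, at a log2 fold change of -0.94 (standard error 0.03, limma adjusted p = 3.16e-12). NUP205 was at -0.91 and its structural relative NUP188 at -0.66. Their log2 ratio was 1.17 ± 0.03 in TP-064 samples and 1.42 ± 0.01 in DMSO samples (SD, n = 3 each). NUP93, the anchor of the ring, was at -0.72. NUP35, which bends membranes, was at -0.73 with a standard error of 0.08, and it had 348 ± 20.9 normalized read counts in TP-064 samples, against 580 ± 56.0 after DMSO.

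Membrane nucleoporins, which fasten the pore to the envelope, moved unequally. NDC1 had the largest fall of any well expressed member. It had 2471, 2548 and 2551 normalized read counts in TP-064 samples, against 6343, 6352 and 6177 after DMSO, so the treated samples were at 40.1% of the DMSO mean. The log2 fold change was -1.32 (standard error 0.03, limma adjusted p = 1.24e-13). NUP210, a large glycoprotein of the lumen, fell by 0.77. POM121 was not called, with a log2 fold change of -0.10 (95% interval -0.20 to 0.00103, limma adjusted p = 0.0767). Its values of 2188, 1940 and 2059 after TP-064 overlapped the 2224, 2183 and 2202 after DMSO. Without TP-064 replicate 1 POM121 passed at -0.14 (adjusted p = 0.0139, where all alternatives ran from 0.0139 to 1), and with scaling to library size it turned to 0.03. The related copy POM121C, which fell by 0.32, can share reads with POM121, so the values of both are uncertain. Within samples the log2 ratio of NDC1 to POM121 was 0.18 to 0.39 after TP-064, against 1.49 to 1.54 after DMSO.

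In the central channel and its linker 5 of 5 members fell, yet by unequal amounts. NUP62, the hub of the channel trimer, had 3298, 3381 and 3051 normalized read counts in TP-064 samples and 6463, 6351 and 6601 in DMSO samples. That is a log2 fold change of -0.998 (standard error 0.04, limma adjusted p = 1.63e-11), just short of 2-fold. NUP58 fell by 0.81, while NUP54, the remaining partner of the trimer, fell by 0.30. The log2 ratio of NUP58 to NUP54 was 0.41 ± 0.02 after TP-064, against 0.92 ± 0.01 after DMSO (SD, n = 3 each), and that of NUP62 to NUP54 was 0.04 ± 0.08 after TP-064, against 0.73 ± 0.05 after DMSO. NUP98, a linker whose repeats form much of the diffusion barrier, fell by 0.31. The lowest value of all was that of NUP62CL, a relative of the NUP62 carboxy terminus on the X chromosome. It had 87.4, 86.1 and 84.3 normalized read counts in TP-064 samples, against 199, 211 and 244 after DMSO, at a log2 fold change of -1.33 (standard error 0.12, limma adjusted p = 8.60e-08). Its level was low, and its 95% interval of -1.58 to -1.08 overlaps that of NDC1.

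The cytoplasmic filaments, where exported cargo is released, were the group with the smallest changes. NUP88 fell by 0.42. NUP214, which NUP88 holds in place, was at -0.13 (standard error 0.05, limma adjusted p = 0.0210), with 1647, 1486 and 1545 normalized read counts in TP-064 samples, against 1752, 1719 and 1661 after DMSO. That call was lost without TP-064 replicate 2 (-0.10), without DMSO replicate 1 (-0.12) or 2 (-0.13) and with TMM (-0.11) or library size scaling (-0.01), and its adjusted p ran from 0.00588 to 1 over the alternatives. RANBP2, the giant filament protein that holds SUMO-modified RANGAP1 at the pore, rose. It had 11378, 11293 and 11544 normalized read counts in TP-064 samples, against 10298, 10241 and 10166 after DMSO, at a log2 fold change of 0.16 (standard error 0.03, limma adjusted p = 0.000452). The 2 sets did not overlap, but the rise was below 1.2-fold and did not pass a test against that size. NUP133, NUP98, NUP54, NUP214 and KPNA6 also lost their call against a 1.2-fold change, which left 27 members lower, where 18.1% of all genes were. RANBP2 has near-identical partial copies, of which RGPD5 and RGPD8 were listed with group means of 13.3 and 54.6 normalized read counts in TP-064 samples, against 17.3 and 56.3 after DMSO, so its value is uncertain. NUPL2, another filament nucleoporin outside the rule that was looked up after these values were seen, stood at -0.01 (standard error 0.04, limma adjusted p = 0.766).

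On the nuclear side, the basket split as the membrane group did. NUP153, which docks the basket and binds importins, fell by 0.83, to 7136 ± 49.0 normalized read counts in TP-064 samples, against 12705 ± 71.4 after DMSO (SD, n = 3 each). NUP50, a mobile factor that helps to release importin alpha cargo, fell by 0.67. TPR, the coiled-coil strands of the basket, was at -0.08 (standard error 0.03, limma adjusted p = 0.0518) and was not called. Its TP-064 samples had 25318, 25756 and 25803 normalized read counts and its DMSO samples 26870, 27507 and 26689, so that the groups lay close but apart. TPR passed as lower with DESeq2 (adjusted p = 0.0326), with no filter on low values (0.0491) and without TP-064 replicate 2 (0.0315), where all alternatives ran from 0.0315 to 1. With library size scaling TPR turned to 0.05. The log2 ratio of NUP153 to TPR was -1.84 ± 0.02 after TP-064, against -1.09 ± 0.03 after DMSO (SD, n = 3 each).

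**Figure D2:**
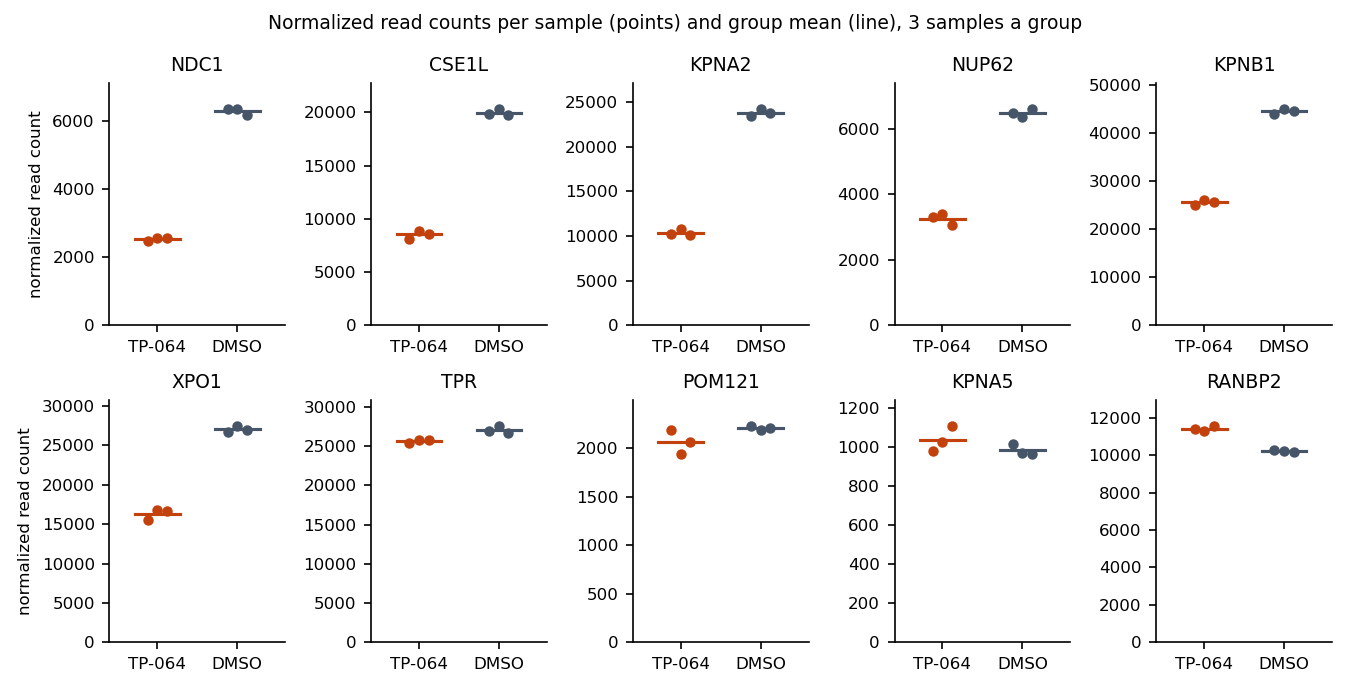
Normalized read counts of 10 members in each of the 3 TP-064 and 3 DMSO samples (points), with group means as lines and axes from 0. NDC1, CSE1L, KPNA2, NUP62, KPNB1 and XPO1 show treated samples far below the DMSO samples, TPR and POM121 sit close to them, KPNA5 overlaps them and RANBP2 lies above.

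Among transport receptors, importin beta, its main adaptor and the factor that recycles that adaptor were all lower. KPNB1, which carries the cargo and adaptor through the pore, had 24977, 26100 and 25675 normalized read counts in TP-064 samples, against 44002, 45031 and 44676 after DMSO. Its log2 fold change was -0.80 (standard error 0.03, limma adjusted p = 2.24e-11). CSE1L, the exportin that returns importin alpha to the cytoplasm, had 8133, 8895 and 8562 after TP-064, against 19841, 20332 and 19733 after DMSO, at -1.23 (standard error 0.04, limma adjusted p = 5.08e-13). The treated samples thus held 42.7% of the DMSO mean of CSE1L and 57.4% of that of KPNB1. XPO1, the exportin for leucine-rich export signals, had 15531, 16748 and 16733 after TP-064, against 26698, 27450 and 26972 after DMSO. At -0.73 (standard error 0.04, limma adjusted p = 1.90e-10) it fell less than CSE1L, and their log2 ratio was 0.94 ± 0.03 after TP-064, against 0.44 ± 0.01 after DMSO (SD, n = 3 each).

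The importin alpha genes encode adaptors of overlapping function in 3 subfamilies, and 5 of the 6 listed fell. KPNA2, the form most abundant in many dividing cells and in many tumours, had 10179, 10758 and 10061 normalized read counts in TP-064 samples, against 23434, 24249 and 23745 after DMSO. Its log2 fold change was -1.205 (standard error 0.04, limma adjusted p = 3.70e-13), or 43.4% of the DMSO mean. Its fall was close in size to that of CSE1L. The log2 ratio of KPNA2 to CSE1L was 0.28 ± 0.05 after TP-064, against 0.25 ± 0.01 after DMSO (SD, n = 3 each), a difference of 0.02 with a standard error of 0.03 (exact permutation test, p = 0.6).

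The other importin alpha genes changed less. KPNA1 had 2891, 2866 and 3076 normalized read counts in TP-064 samples, against 4007, 4072 and 4111 after DMSO, at a log2 fold change of -0.47. KPNA3 had 2329, 2383 and 2536 after TP-064, against 3220, 3262 and 3255 after DMSO, at -0.43. KPNA4 had 4202, 4238 and 4360 after TP-064, against 5758, 5758 and 5693 after DMSO, also at -0.43. These 3 thus fell to between 72.5% and 74.4% of their DMSO means. KPNA6 was lower by a small amount, with 4182, 3984 and 3949 after TP-064, against 4441, 4538 and 4461 after DMSO, at -0.15 (standard error 0.04, limma adjusted p = 0.00187). Under library size scaling KPNA6 was no longer called (-0.03). KPNA5, a close relative of KPNA1 and KPNA6, was not called, with 978, 1024 and 1105 after TP-064, against 1015, 969 and 964 after DMSO. The 95% interval of its log2 fold change of 0.07 ran from -0.04 to 0.19, and it passed as higher with library size scaling (0.20).

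The mix of importin alpha transcripts also differed between the groups. Levels were compared per kilobase of annotated exon, taken over all isoforms of a gene. KPNA2 made up 62.4%, 63.8% and 61.3% of the summed importin alpha level in TP-064 samples and 75.0%, 75.4% and 75.2% in DMSO samples. The difference was -12.7 percentage points (exact permutation test, two-sided p = 0.1, the smallest that 3 against 3 samples allow). Such shares are set within a sample, so scaling between samples does not move them. Each other importin alpha had a larger share after TP-064, without overlap between groups. The shares of a sample add up to the whole, so a smaller KPNA2 share leaves more for the others together. Their larger shares are thus not results separate from that of KPNA2. In level, KPNA5 alone among them had a higher mean after TP-064, and it was not called. KPNA6 took 10.3% ± 0.44 after TP-064, against 5.94% ± 0.02 after DMSO, and KPNA5 1.72% ± 0.11 after TP-064, against 0.854% ± 0.03 after DMSO (SD, n = 3 each). The summed importin alpha level was 5263 ± 94.0 normalized read counts per kilobase after TP-064, against 10083 ± 144 after DMSO. Over the 7 values tested for this group the Benjamini-Hochberg adjusted p was 0.1.

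**Figure D3:**
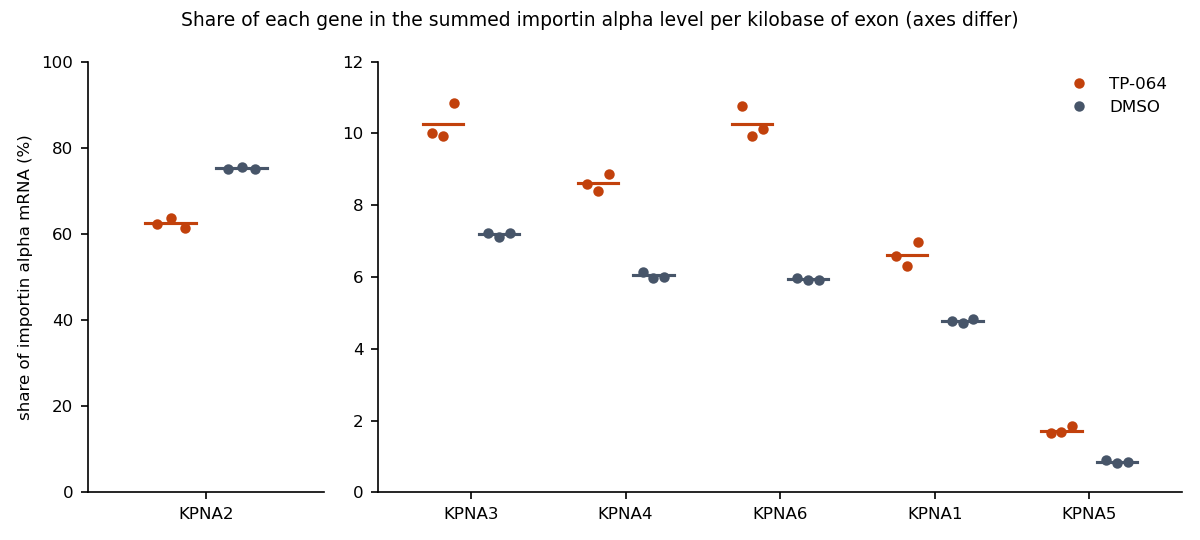
Share of each importin alpha gene in the summed level per kilobase of exon, in percent, for each TP-064 and DMSO sample (points) with group means (lines). The left panel shows KPNA2, at 61.3% to 63.8% after TP-064, against 75.0% to 75.4% after DMSO, and the right panel, on its own axis, the other 5 genes, each with a larger share after TP-064.

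The ratios between members given above are from 12 pairs chosen with their values known. In 11 pairs the 3 TP-064 samples lay wholly on one side of the 3 DMSO samples, and these reached an exact permutation p of 0.1, the smallest possible, or 0.109 with adjustment over the pairs. KPNA2 with CSE1L was the pair that did not.

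Ordered by level per kilobase, 3 of the 9 transport receptors stood at the top, while XPO1 ranked 8 after TP-064 and 5 after DMSO and the other importin alpha genes ranked 21 or lower in both groups. KPNB1 had 3332 normalized read counts per kilobase after TP-064, against 5805 after DMSO. KPNA2 had 3291 after TP-064, against 7583 after DMSO, so the order of KPNA2 and KPNB1 at the head of the list was reversed, though after TP-064 they were nearly level. CSE1L followed as the third in both groups, at 2245 after TP-064, against 5255 after DMSO. TPR, at 2075 after TP-064, against 2188 after DMSO, ranked 4 after TP-064, against 7 after DMSO. RANBP2 ranked 12 after TP-064, with 927, and 22 after DMSO, with 832. NDC1 moved the other way, ranking 25 after TP-064, with 491, and 15 after DMSO, with 1225. Apart from NUP210L, the lowest levels per kilobase belonged to KPNA5, NUP62CL, NUP214 and NUP35, at 46.0 to 119 after TP-064, against 86.1 to 143 after DMSO. These levels depend on the exon length used, which counts every annotated isoform. As a description over the 36 tested members, which share libraries and scaling, the log2 fold change had a Spearman rho of -0.37 with the DMSO level per kilobase and of 0.48 with exon length. The DMSO values enter both the fold change and that level, so the negative rho can be partly built in. Exon length also divides the level, so these are not separate relations.

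**Figure D4:**
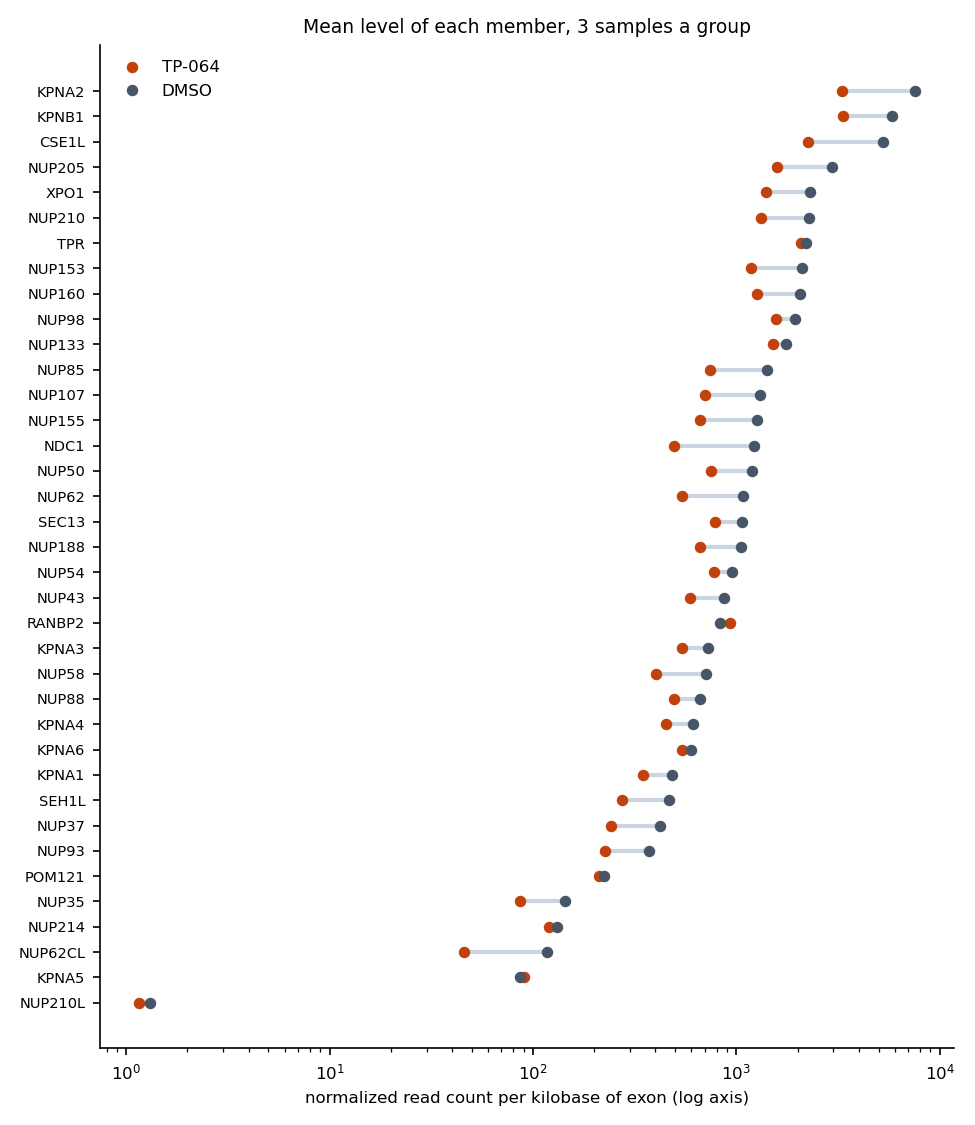
Mean normalized read count per kilobase of exon for the 37 members, on a log axis, in TP-064 and in DMSO samples, 3 each, ordered by the DMSO level. KPNA2, KPNB1 and CSE1L are highest in both groups, and RANBP2 and KPNA5 are the members whose TP-064 mean lies to the right of the DMSO mean.

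Exons of 14 members overlap a listed gene on the opposite strand. The sources used here do not give a strand setting for the counting, so it is not known whether reads of such pairs were told apart. Among the other 22 tested members 20 fell and 1 rose, with a median of -0.75. The partner of NUP62 is ATF5, which had a mean of 1959 normalized read counts in TP-064 samples, against 2000 after DMSO and was not called. NUP88 overlaps RABEP1 and RPAIN, which rose by 0.17 and 0.25, and NUP188 overlaps SH3GLB2, which was at 0.02 and not called. NUP43 and NUP98 overlap PCMT1 and PGAP2, which fell by 0.27 (PCMT1) and fell by 0.30 (PGAP2). POM121 overlaps NSUN5P2, which rose by 0.21. The partners of NUP107, SEC13, NUP153, XPO1, KPNA1, KPNB1 and TPR had means of at most 111 normalized read counts, and KRT8P12, the partner of KPNA4, had 217 after TP-064, against 172 after DMSO. Their part in the members' values was not tested. Of the genes named from other lists, RANBP1, IPO9, SENP1, ALYREF, TMPO, TYMS and POM121C also overlap a listed gene on the opposite strand. That overlap was not tested either.

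The members sit among other transport genes that were also lower. Beside the counts of these and the following lists, 33.3% of all genes tested were called lower. Among genes with a mean of at least 1000 it was 47.4%. In the Ran cycle, which powers directional transport, 7 of 7 genes fell with a median of -0.86. RANBP1, a coactivator of Ran GTP hydrolysis, was at 4118 ± 194 normalized read counts in TP-064 samples, against 10054 ± 262 after DMSO, at a log2 fold change of -1.29, and RCC1, the exchange factor that loads Ran with GTP on chromatin, at 3674 ± 153 after TP-064, against 8799 ± 232 after DMSO, at a log2 fold change of -1.26 (SD, n = 3 each). Ran itself fell by 0.93. Of 11 further import receptors 9 fell and 1 rose, with a median of -0.38. IPO5, an importer of ribosomal proteins and histones, fell by 0.88 and IPO9 by 0.68, while IPO13, which works in both directions, rose by 0.16. All 5 further exportins fell, with a median of -0.42, among them XPOT, which exports transfer RNA, at -0.48 and XPO7 at -0.46.

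In the list of other nucleoporins and pore cofactors 7 of 7 genes fell, with a median of -0.31. NUPL2, described above as not called, is not in that list. SENP1, a SUMO protease of the pore, fell by 0.52 and RAE1, the partner of NUP98 in mRNA export, fell by 0.46. In mRNA export 17 of 19 genes fell and 0 rose, with a median of -0.37. ALYREF, the adaptor that recruits the export receptor, fell by 1.35 and DDX39A, a helicase of that step, fell by 1.21, while the receptor NXF1 itself was at -0.33. In the lamina and inner membrane 7 of 11 genes fell, 1 rose and 3 were not called, with a median of -0.37. TMPO, which encodes the LAP2 proteins, fell by 1.32 and LMNB1, lamin B1, fell by 1.28. LMNA, lamins A and C, rose by 0.44 at a low level, with 203 ± 40.0 normalized read counts in TP-064 samples, against 148 ± 11.1 after DMSO (SD, n = 3 each).

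**Figure D5:**
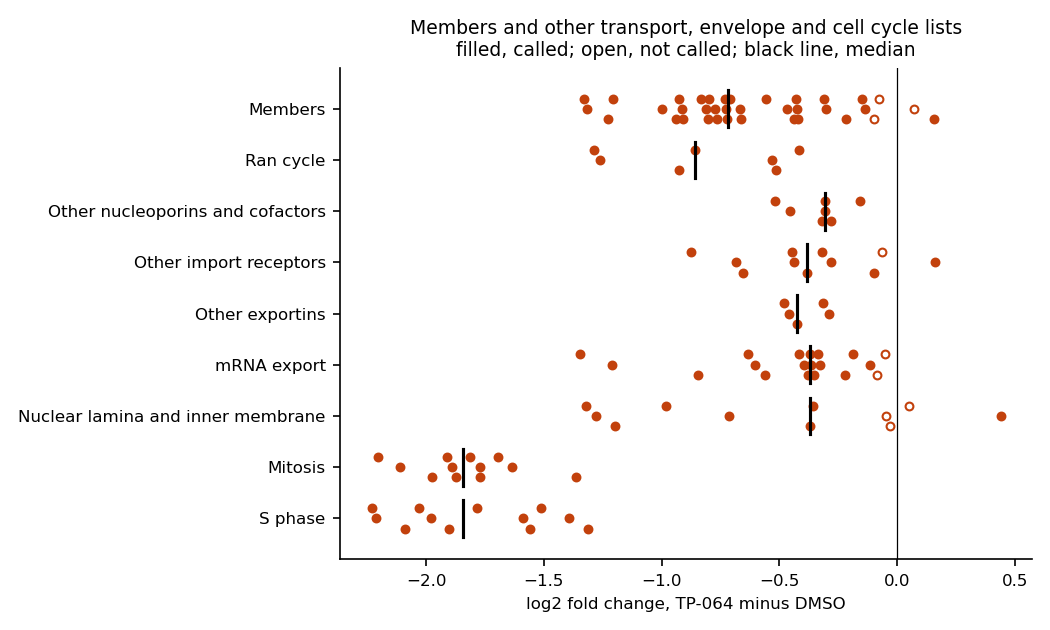
Log2 fold change, TP-064 minus DMSO, of the tested members and of genes in the other transport, envelope and cell cycle lists. Filled points passed the test, open points did not, and black lines are medians, which are -0.72 for the members, -0.86 for the Ran cycle and -1.84 for mitosis and for S phase.

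Proliferation genes moved with these changes and by larger amounts. All 12 mitosis genes and all 12 S phase genes fell, each with a median of -1.84. TOP2A, the topoisomerase of dividing chromosomes, had 20913 ± 925 normalized read counts in TP-064 samples, against 77538 ± 828 after DMSO (SD, n = 3 each). CDC6, a loader of the replication helicase, had 2122 ± 147 after TP-064, against 9949 ± 293 after DMSO. BUB1B, a kinase of the spindle checkpoint, was at -2.11 and TYMS, which makes thymidylate, at -1.90. The smallest fall in either list was -1.31, about equal to the largest among the members. The part of proliferation in the members' changes was not tested.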

How the data were processed

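Per the labels' protocols, polyadenylated RNA was purified on columns and its libraries were prepared with a stranded kit. Per the submitters' processing notes, the tools were DESeq 1.18.0, HTSeq 0.6.0 and TopHat2 2.0.10 and the build was hg38. Neither the annotation release nor the strand setting is given in the sources used here. The authors deposited 1 table of 18278 genes whose values are a signal, the read count of a gene over the size factor of its library, called the normalized read count. All values were whole multiples of 1 step per column within a tolerance of 0.001 (100% whole), and the inverse steps, 0.925 to 1.14, equalled recomputed median-of-ratios factors. In replicate 2 of each group the factor is too near 1 to tell the step from rounding by its size alone, so counts recovered there rest on the unrounded decimals and that recomputation. On the recovered counts edgeR with TMM called 10562 genes, where limma called 10449.

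Symbols, coordinates and exon lengths come from GENCODE 29, matched by identifier without version for 18214 genes, and promoter stretches from RefSeq on GRCh38.p14. Genes whose mean over 6 samples reached 10 were fitted with limma 3.58.1 in R 4.3.3, with a trend, after adding a pseudocount of 1 and taking log2, with no replicate block and 4 residual degrees of freedom. Differences on that scale, TP-064 minus DMSO, are the fold changes, which are understated for low genes. Calls need an adjusted p (Benjamini-Hochberg, two-sided) under 0.05 over all genes tested. Data were simulated from these libraries with 100 genes raised 1.5-fold and 100 raised 2-fold in TP-064 samples. These planted genes had a mean of at least 200, and 16029 genes were run. The procedure recovered 98% of planted 1.5-fold changes and 100% of planted 2-fold changes, and 4.35% of all its calls were false. Far fewer genes changed there than were called in these data, and no planted change was a fall or smaller than 1.5-fold. The rates may therefore not hold for the calls given here. The motif letters and the pairs of members set in ratio were chosen with values known. Ratios and shares within samples were compared by exact permutation. The chi-square between replicates was 3.21 to 8.10 per degree of freedom, above sampling noise, so each library counted as 1 sample. The rule on values per sample took the 6 called members with the largest change in each direction, each importin alpha, KPNB1, XPO1 and CSE1L; from each other list it took the called genes of smallest p, up to 2 in the direction of most and 1 in the opposite one. Other genes of those lists named here (RAN, NXF1, POM121C) were chosen after their values were seen. From the B cell marker list 1 gene is not reported here. The members and lists were chosen with earlier results of these data known. Alternatives were scaling to library size or by TMM, edgeR 4.0.16 and DESeq2 1.42.0 on recovered counts, other pseudocounts and filters, a block by replicate, leaving out each replicate, a threshold of 0.01 and a null of a 1.2-fold change.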

Additional observations from a re-analysis of the deposited data

How the results depend on the processing

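Of the 36 tested members, 27 kept direction and call under all 18 settings that refit single genes or their threshold. The median of all genes was 0.01, and 0.13 with library size scaling, where 61.5% of calls were higher, against 48.9%. With that scaling 30 members were lower and 2 higher, the members' median was -0.59, and POM121 (a log2 fold change of 0.0257) and TPR (0.0463) turned positive without a call. The members' median was -0.69 with TMM scaling in limma and -0.69 with TMM in edgeR. Against a null of a 1.2-fold change 5592 genes were called, 27 members were lower and 0 higher, and NUP133, NUP98, NUP54, NUP214, RANBP2 and KPNA6 were no longer called. At an unadjusted limma p under 0.05 against that null 0 members were higher. Leaving out members with exons shared with an opposite-strand gene, chosen after seeing the data, left 20 lower, by construction from fewer genes, with a median of -0.75. Leaving out 1 replicate at a time moved the members' median between -0.72 and -0.69. The number of members lower ranged from 31 to 33, and the KPNA2 share differed by -13.3 to -12.1 percentage points. From read counts not divided by length the KPNA2 share differed by -15.0 points. With a replicate block 33 members were lower, 1 was higher, and the median was -0.72, with TPR (adjusted p = 0.0374, range 0.0315 to 1 over the alternatives) as the added call. Same-numbered samples of the groups had deviations correlated at -0.09, 0.07 and -0.08. No large shared shift was thus seen, but such values cannot tell whether same-numbered samples came from a shared culture. Depth limits the test for NUP210L.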
